A study of Mus musculus with 4 samples.

Results

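The transcripts described here are those of Aire, Fezf2, Irf4, Irf8, Prdm1, Chd4 and Hdac3, 7 of the 31053 genes in the count matrices. They were chosen as regulators of tissue-restricted antigen expression in mature medullary thymic epithelial cells (mTECs). Each symbol matched 1 gene of the matrices, and its unique molecular identifiers (UMIs, counts of captured RNA molecules) were summed over all cells and over each cell class in every library. Sums are given as CPM, the UMIs of a gene per 1000000 UMIs of the same cells.

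Thymic epithelial cells (TECs, sorted as EpCAM+CD45-TER119-) came from 6-week-old C57BL/6 mice of 4 conditions. WT-Control mice were wild type and received control rat IgG. WT-RANKL-Ab mice were wild type and received OYC1, an antibody that neutralizes RANKL, the ligand of the receptor RANK. Cd40-/- Control and Cd40-/- RANKL-Ab mice lacked Cd40 in all cells and received IgG or OYC1. Where 4 values stand without names, the wild-type pair comes before the Cd40-/- pair, and IgG before antibody in each. The dose was 5 mg/kg under the skin at 4 weeks of age, 2 weeks before dissection. Thymi of 3 mice were pooled into a single droplet-based scRNA-seq library for each condition, so no difference below has a replicate check and no p-value is given. Intervals are 95% intervals of counting error alone, and every comparison with WT-Control shares that library.

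AIRE and FEZF2 are nuclear proteins that let mTECs transcribe genes otherwise restricted to peripheral tissues, so that developing T cells meet those self-antigens before they leave the thymus. RANK and CD40 on TECs both signal to NF-kB, and Aire is switched on late in mTEC maturation. The dividing precursors of Aire-expressing mTECs include cells that already carry Aire RNA. IRF4 and IRF8 are transcription factors of the interferon regulatory factor family, best known from lymphoid and myeloid cells. CHD4 is a chromatin-remodelling ATPase of the NuRD complex, HDAC3 is the histone deacetylase of a nuclear receptor corepressor complex, and PRDM1 (Blimp1) is a zinc-finger repressor known from plasma cells and from terminal differentiation of the epidermis.

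Aire lies at chr10:78030022-78043610, Fezf2 at chr14:12342094-12348189, Irf4 at chr13:30749226-30766976, Irf8 at chr8:120736358-120756694, Chd4 at chr6:125095981-125130591 and Prdm1 at chr10:44437177-44528501 in GRCm38. Aire, Fezf2 and Prdm1 are on the minus strand and the others on the plus strand. All of them are protein-coding. RefSeq start sites were used for 6 of the 7 genes, all but Hdac3. The 100 bases before the start site are shown for Aire, Irf4, Irf8 promoter 1, Fezf2 and Chd4 promoter 2. These include every window that held a motif match. They are written 5′ to 3′ in the direction of transcription, from RefSeq on GRCm38.p6, with capitals marking a motif match.
Aire, chr10:78043611-78043710, minus strand: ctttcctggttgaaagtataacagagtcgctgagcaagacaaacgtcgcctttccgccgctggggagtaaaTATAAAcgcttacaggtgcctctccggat
Irf4, chr13:30749133-30749232, plus strand: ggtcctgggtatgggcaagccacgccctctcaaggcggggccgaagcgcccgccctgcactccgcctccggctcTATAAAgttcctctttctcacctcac
Irf8 promoter 1, chr8:120736258-120736357, plus strand: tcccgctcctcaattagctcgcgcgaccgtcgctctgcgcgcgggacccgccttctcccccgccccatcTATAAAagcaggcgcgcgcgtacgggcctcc
Fezf2, chr14:12345866-12345965, minus strand: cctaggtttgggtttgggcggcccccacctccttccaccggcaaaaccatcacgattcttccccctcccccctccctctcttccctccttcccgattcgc
Chd4 promoter 2, chr6:125096063-125096162, plus strand: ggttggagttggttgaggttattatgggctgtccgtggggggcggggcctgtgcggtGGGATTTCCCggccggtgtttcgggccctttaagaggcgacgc

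The letters TATAAA, the core of a TATA box, stood at bases -29 to -24 of Aire, -26 to -21 of Irf4 and -31 to -26 of Irf8 promoter 1, counted back from the start site. They occurred on either strand in 5.56% of the 32851 RefSeq promoters of the same length. The NF-kB pattern (GGGA, any base, TT, any base, CC) was found in Chd4 promoter 2, at bases -43 to -34, and in 0.359% of all promoters. The interferon-response pattern (GAAA, any 2 bases, GAAA) was in 0.983% of all promoters and in none of the 8 windows of the 6 genes. Fezf2 and Prdm1 held none of the 3 patterns, nor did Chd4 promoter 1 and Irf8 promoter 2. A match describes letters in a 100-base window and is not a measured binding site.

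After filtering, 26113 cells remained, 9648 in WT-Control, 6672 in WT-RANKL-Ab, 7785 for Cd40-/- Control and 2008 for Cd40-/- RANKL-Ab, with median depths between 6370.5 and 8089 UMIs per cell. A gate on marker genes, none of them among the 7, named 77.9% of the cells, and 17.3% of cells lay within 0.1 of a score limit. Each pair of libraries shared between 15 and 99 barcodes, and leaving out the cells with a shared barcode left every count of genes past 2-fold over all cells as it was. Cd40, the targeted gene, was at 110.2 CPM in WT-Control, 28.8 in WT-RANKL-Ab, 5.75 for Cd40-/- Control and 4.76 for Cd40-/- RANKL-Ab, and such 3′ counts can come from outside the deleted part. Aire-stage mTEC-like cells, gated on Cd80, Cd86, Ccl22, Ubd and others, made up 14.7% of WT-Control cells (1418), 3.45% of WT-RANKL-Ab cells (230), 8.21% of Cd40-/- Control cells (639) and 0.0996% of Cd40-/- RANKL-Ab cells (2). Classes are called by the markers that gated them, as X-like. The gates for dendritic, macrophage or B cells (110 cells) and for endothelial cells (53 cells) were led by genes other than their markers and are left unnamed.

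Aire, the autoimmune regulator, differed most of the 7 genes over all cells. It was at 333 CPM in WT-Control (95% interval 329 to 337), 34.0 CPM in WT-RANKL-Ab (32.4 to 35.7), 284 CPM for Cd40-/- Control (280.3 to 288) and 2.78 CPM for Cd40-/- RANKL-Ab (2.08 to 3.63). The level was 9.79-fold lower in WT-RANKL-Ab than in WT-Control (log2 ratio -3.25, -3.32 to -3.18), 1.17-fold lower in Cd40-/- Control (-0.23, -0.25 to -0.20) and 120.0-fold lower in Cd40-/- RANKL-Ab (-6.47, -6.76 to -6.17). The intervals of the 4 libraries did not overlap. In Cd40-/- RANKL-Ab, 53 Aire UMIs were counted among 19098773, in 17 of 2008 cells (0.847%), and 26 of these UMIs came from the 2 Aire-stage mTEC-like cells. Log2 ratios here and below are of CPM with 1 CPM added, which understates the ratio of low genes. Sums over all cells mix the makeup of a library with the level per cell, and fewer cells of a type cannot be told apart there from less RNA per cell.

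Fezf2, which controls a set of self-antigens largely separate from that of AIRE, was at 461 CPM in WT-Control (456 to 465), 235 in WT-RANKL-Ab (230.3 to 239), 301 for Cd40-/- Control (296 to 305) and 90.8 for Cd40-/- RANKL-Ab (86.6 to 95.2). It was highest in WT-Control and lowest in Cd40-/- RANKL-Ab, and its order over the libraries was that of Aire except that its gap between Cd40-/- Control and WT-RANKL-Ab was narrower. The log2 ratios against WT-Control were -0.97 with the antibody in wild type, -0.61 (-0.64 to -0.59) for Cd40-/- Control and -2.33 (-2.40 to -2.26) with both. The WT-RANKL-Ab value lies just inside the 2-fold limit, and scaling with TMM factors puts it outside at -1.11.

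Irf4 was counted at 18.6 CPM in WT-Control (1767 UMIs), 6.57 CPM in WT-RANKL-Ab (317 UMIs), 16.3 CPM for Cd40-/- Control (1068 UMIs) and 0.419 CPM for Cd40-/- RANKL-Ab (8 UMIs). Its log2 ratios against WT-Control were -1.38 (-1.53 to -1.22), -0.19 (-0.29 to -0.08) and -3.79 (-4.06 to -3.43). Irf4 thus stood in the same order over the libraries as Aire, with Cd40-/- Control close to WT-Control. Irf8 varied less, at 222 CPM, 199 CPM, 217 CPM and 143 CPM in the 4 libraries. Its largest log2 ratio against WT-Control was -0.63 (-0.69 to -0.58), in Cd40-/- RANKL-Ab.

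The chromatin regulators went the other way. Chd4 was at 85.2 CPM in WT-Control, 115 in WT-RANKL-Ab, 126 for Cd40-/- Control and 117 for Cd40-/- RANKL-Ab, with log2 ratios against WT-Control of 0.43 (0.38 to 0.48), 0.55 and 0.46. Hdac3 was at 32.5 CPM, 45.7 CPM, 40.9 CPM and 42.1 CPM in the same order of libraries, with log2 ratios of 0.48, 0.32 and 0.36. WT-Control was the lowest library for both genes. TMM factors lower these ratios, which then lie between 0.16 and 0.39 for the pair and stay above 0. Prdm1 was sparse, with 123, 38, 147 and 16 UMIs, or 1.30, 0.787, 2.24 and 0.838 CPM.

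**Figure D1:**
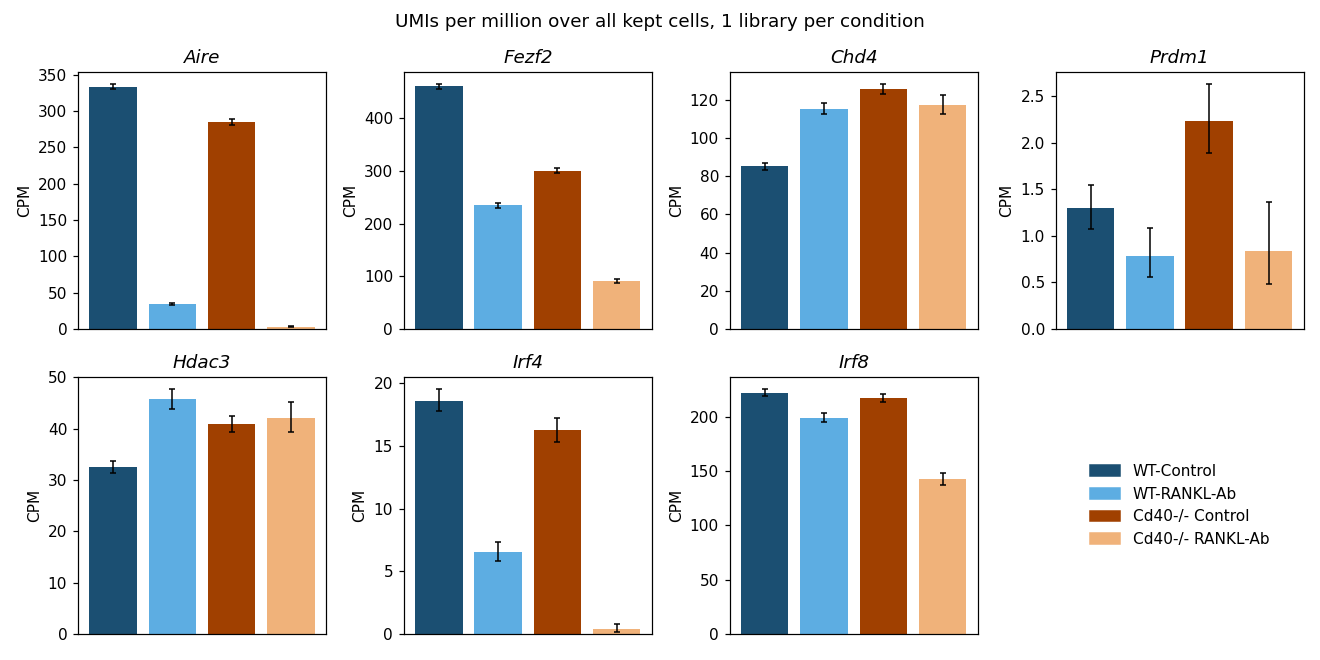
CPM of the 7 genes over all kept cells of each library (y axis, linear, starting at 0), with 95% Poisson intervals as error bars and 1 library per condition. Aire, Fezf2 and Irf4 are lowest in Cd40-/- RANKL-Ab (2.78, 90.8 and 0.419 CPM), and Chd4 and Hdac3 are lowest in WT-Control (85.2 and 32.5 CPM).

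Genes past a 2-fold limit were counted among those with 50 or more UMIs over the pair of libraries compared. Over all cells, 2 of the 7 were at least 2-fold lower in WT-RANKL-Ab than in WT-Control (Aire and Irf4), against 15.3% of all 18336 genes tested, and 0 were 2-fold higher, against 4.97%. In Cd40-/- Control 0 of 7 passed in either direction, where 1.25% of all genes were lower and 2.81% higher. In Cd40-/- RANKL-Ab 3 of 7 were lower (Aire, Fezf2 and Irf4), against 21.1% of all genes, and 0 were higher, against 10.2%. The median log2 ratio of the 7 genes was -0.36, -0.03 and -0.63 in the 3 comparisons, and that of all genes 0.05, 0.08 and 0.01. With 10 CPM added in place of 1, Aire alone passed in WT-RANKL-Ab.

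Within cell classes, Aire was highest in the classes gated on its stage. Aire-stage mTEC-like cells held 603 CPM in WT-Control (591 to 616), 360.5 CPM in WT-RANKL-Ab (331 to 392) and 670.3 CPM for Cd40-/- Control (649 to 693). The 230 WT-RANKL-Ab cells thus kept a level 1.67-fold below WT-Control (log2 ratio -0.74, -0.87 to -0.62), while Cd40-/- Control was 1.11-fold above it (0.15, 0.10 to 0.21, and -0.01 under TMM factors). The median depth of these cells was 10218 UMIs in WT-Control, 4971.5 in WT-RANKL-Ab and 7995 for Cd40-/- Control. Among cells of the class without a UMI of any dendritic, macrophage or B cell marker, the WT-RANKL-Ab ratio was -0.38. Those cells had a median depth of 7117 UMIs in WT-Control and 2750.5 in WT-RANKL-Ab, and lacking a marker UMI depends on depth.

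Aire differed more in early Aire-lineage mTEC-like cells, gated on Hes6, Utf1, Tmem158 and Nkx6-2, at 520.3 CPM in WT-Control (509 to 532), 106 in WT-RANKL-Ab (95.7 to 117) and 550.5 for Cd40-/- Control (534 to 567). This is a log2 ratio of -2.28 (-2.43 to -2.13) in WT-RANKL-Ab, or 4.90-fold lower. The cells of this gate in WT-RANKL-Ab also carried 12231 CPM of Ccl21a, the chemokine of less mature mTECs, against 2162 CPM in WT-Control and 1723 CPM for Cd40-/- Control, and the part of this difference in the Aire value was not tested. In cycling TEC-like cells Aire was at 407, 43.4 and 392 CPM in WT-Control, in WT-RANKL-Ab and then in Cd40-/- Control, a log2 ratio of -3.20 (-3.56 to -2.86) in WT-RANKL-Ab. Most of the Aire UMIs of dividing cells were in those low in Ccl21a, with 476 CPM in WT-Control (420 cells), 75.2 CPM in WT-RANKL-Ab (49 cells) and 446 CPM for Cd40-/- Control (498 cells).

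Mimetic mTECs, which take on programs of peripheral cell types after the Aire stage, were also counted for Aire. Over the microfold-, neuroendocrine-, ciliated-, keratinocyte- and enterohepatic-like classes together it was at 227 CPM in WT-Control (218 to 236), 48.2 CPM in WT-RANKL-Ab (37.0 to 61.7) and 253 CPM for Cd40-/- Control (241 to 266). Enterohepatic-like cells had the highest level among them, 338 CPM in WT-Control and 426 CPM for Cd40-/- Control. T cell-like cells, which should lack Aire, stood at 125 CPM in WT-Control (102 to 153) and 28.4 CPM for Cd40-/- Control. Thinned to 1000 UMIs per cell, 15.04% (13.05 to 17.3) of the mimetic cells of WT-Control held an Aire UMI against 9.59% (3.52 to 19.3, 64 cells) of T cell-like cells, so the shares overlapped, and for Cd40-/- Control it was 14.1% (11.8 to 16.7) against 2.51%. Keratinocyte-like cells, at 120.0 CPM in WT-Control, and tuft-like cells did not exceed the T cell-like level in that library, which does not decide whether they express Aire. Tuft-like cells were at 60.0, 5.90, 58.0 and 0 CPM in the 4 libraries, where 0 UMIs in 56 Cd40-/- RANKL-Ab cells allow up to 7.21 CPM. Cd40-/- RANKL-Ab held 8 mimetic cells in all, with 0 Aire UMIs.

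In CCL21+ mTEC-like cells, the less mature medullary class gated on Ccl21a, Krt5 and Krt14, Aire was at 18.2 CPM in WT-Control, 3.36 in WT-RANKL-Ab, 10.4 for Cd40-/- Control and 0.622 for Cd40-/- RANKL-Ab. After thinning each cell to 1000 UMIs, 1.79%, 0.328%, 0.857% and 0.0645% of these cells held an Aire UMI. T cell-like cells, which should lack Aire, held one in 9.59% (64 cells), 0.114%, 2.51% and 0.0359% of cells. The CCL21+ share lay below the T cell-like share in WT-Control and within counting error of it, or below, in the other libraries. Several classes of WT-Control lay below T cell-like cells in Aire, so the T cell-like value is not a floor common to all classes. The comparison therefore does not decide whether CCL21+ mTEC-like cells express Aire. The CPM values had the same order over the libraries as the Aire level over all cells.

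Over the 42 combinations of class and library with at least 50 cells, the Aire level ranged from 0 CPM in tuft-like cells of Cd40-/- RANKL-Ab to 670.3 CPM in Aire-stage mTEC-like cells of Cd40-/- Control, with a median of 59.0 CPM. The order in WT-Control ran from Aire-stage, early Aire-lineage and cycling cells to mimetic cells, and the intervals of neighbours in this order did not overlap. Tuft-like, cTEC-like (39.1 CPM), progenitor-like (33.7 CPM) and CCL21+ mTEC-like cells lay below the T cell-like level of 125 CPM and are not ranked. The gate left 915 WT-Control cells with scores too close to name, and these held 475 CPM of Aire.

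To set makeup beside level, the WT-Control class levels were applied to the class makeup of another library and the reverse. A class can itself differ in makeup between libraries, so the 2 are not fully separated. Cycling cells, for example, were 124 high and 420 low in Ccl21a in WT-Control, against 93 and 49 in WT-RANKL-Ab. With the makeup of WT-RANKL-Ab and the levels of WT-Control, Aire would stand at 158 CPM over all cells, and with the makeup of WT-Control and the levels of WT-RANKL-Ab at 103 CPM. The observed 34.0 CPM lies below both. For Fezf2 the same values were 272 and 338 CPM, and the observed 235 CPM also lies below both. For Irf8 they were 155 and 320.3 CPM around an observed 199 CPM, so that the makeup alone would lower it and the levels alone would raise it. The makeup of Cd40-/- RANKL-Ab with WT-Control levels gave 119.6 CPM of Aire and 189 CPM of Fezf2, against 2.78 and 90.8 observed. The reverse gave 171 and 385 CPM, with levels of Cd40-/- RANKL-Ab that rest on 2 cells in the Aire-stage class. That library also held 0 enterohepatic-like cells.

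**Figure D2:**
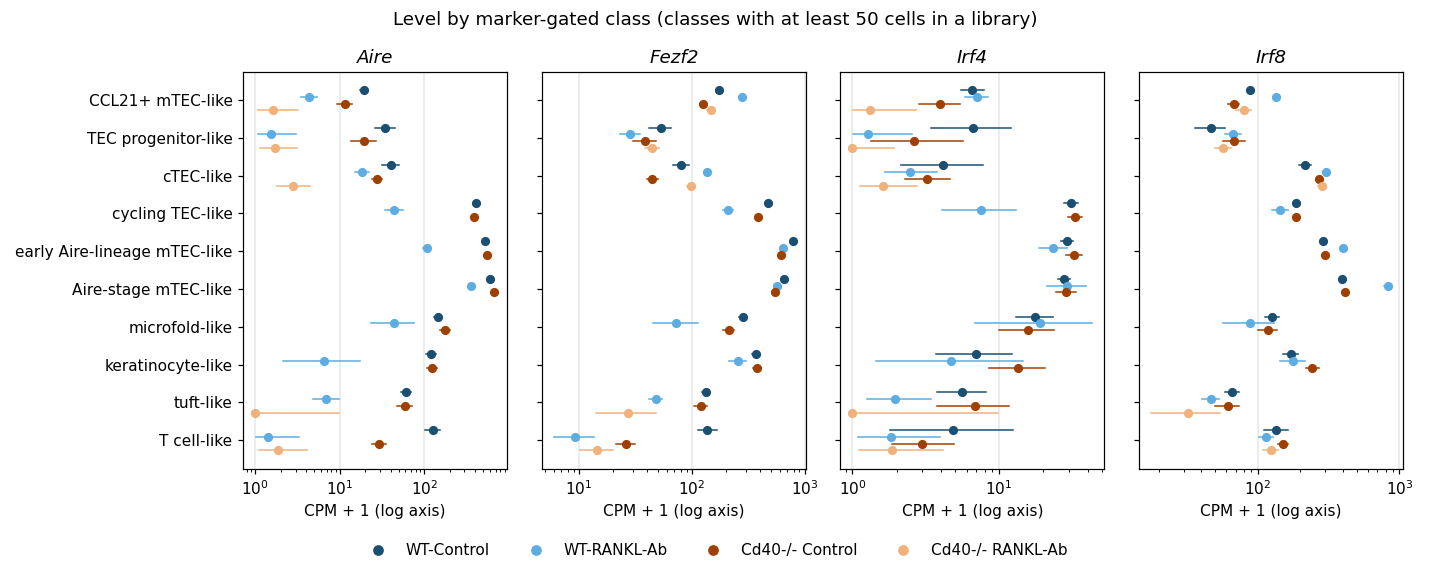
CPM + 1 (log axis) of Aire, Fezf2, Irf4 and Irf8 in each class with at least 50 cells in a library, with 95% Poisson intervals as lines and the library as colour. Aire is below WT-Control in WT-RANKL-Ab in every class drawn, while Fezf2 and Irf8 in CCL21+ mTEC-like cells are higher there (275 against 174 CPM and 133 against 87.3 CPM).

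Fezf2 had a wider distribution over the classes than Aire. It was highest in early Aire-lineage mTEC-like cells, at 787 CPM in WT-Control (773 to 802), 641 in WT-RANKL-Ab (615 to 668) and 619 for Cd40-/- Control (601 to 636). Aire-stage mTEC-like cells followed with 659, 572 and 542 CPM. In both classes the log2 ratios against WT-Control lay between -0.35 and -0.20, within the 2-fold limit. In cycling TEC-like cells it was at 476 CPM in WT-Control, 209 CPM in WT-RANKL-Ab and 385 CPM for Cd40-/- Control. The cycling cells high in Ccl21a, a subset, held 284, 290.3 and 262 CPM, while those low in Ccl21a held 524, 75.2 and 407 CPM.

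CCL21+ mTEC-like cells carried Fezf2 RNA in all 4 libraries, at 174 CPM in WT-Control (167 to 180.4), 275 CPM in WT-RANKL-Ab (267 to 284), 125 CPM for Cd40-/- Control (118 to 134) and 147 CPM for Cd40-/- RANKL-Ab (134 to 161). The level was highest in WT-RANKL-Ab, 1.58-fold above WT-Control (log2 ratio 0.66, 0.59 to 0.73), whereas Fezf2 over all cells was lower there. Cd40-/- RANKL-Ab was also above its own control, by a log2 ratio of 0.23 (0.07 to 0.39). Among CCL21+ mTEC-like cells without a UMI of the early Aire-lineage markers, the levels were 115, 217, 99.7 and 108 CPM, and the WT-RANKL-Ab ratio was 0.92. The class held 6.37% of the Fezf2 UMIs of WT-Control and 37.6% of those of WT-RANKL-Ab, with 4.75% and 27.3% in Cd40-/- Control and Cd40-/- RANKL-Ab.

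After thinning to 1000 UMIs, 14.5% (13.1 to 16.0) of CCL21+ mTEC-like cells held a Fezf2 UMI in WT-Control, 22.8% (21.05 to 24.6) in WT-RANKL-Ab, 10.9% (9.20 to 12.7) in Cd40-/- Control and 13.2% (10.0 to 16.8) in Cd40-/- RANKL-Ab. The shares in T cell-like cells were 9.44% (3.52 to 19.3, 64 cells), 0.699%, 2.44% and 0.816%. The CCL21+ shares exceeded these clearly in 3 libraries and overlapped in WT-Control. The ratio of Fezf2 to Aire UMIs in this class was 9.53 in WT-Control, 81.9 in WT-RANKL-Ab, 12.0 for Cd40-/- Control and 237 for Cd40-/- RANKL-Ab, the last on 2 Aire UMIs. In T cell-like cells of WT-Control the ratio was 1.09 and in Aire-stage mTEC-like cells 1.09. The Aire shares of the CCL21+ class did not exceed those of T cell-like cells beyond counting error, as given above.

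In cTEC-like cells, the cortical epithelium, Fezf2 was also higher with the antibody. It was at 79.2 CPM in WT-Control (67.1 to 92.8), 137 in WT-RANKL-Ab (127 to 146), 43.9 for Cd40-/- Control (39.2 to 49.0) and 97.9 for Cd40-/- RANKL-Ab (89.4 to 107). The antibody library was above its control in both genotypes, with log2 ratios of 0.78 (0.53 to 1.04) and 1.14 (0.93 to 1.35). Thinned shares of cells with a UMI were 6.23%, 10.8%, 2.81% and 9.08%. In the IgG libraries they did not exceed the T cell-like shares beyond counting error, and in the antibody libraries they did. Ccl21a in cTEC-like cells was at 4587, 5034, 2595 and 4411 CPM, and its part in these values was not tested.

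Progenitor-like cells, gated on Pdpn, Ackr4 and Dcn, were low in Fezf2 in every library, at 52.0 CPM in WT-Control, 27.6 CPM in WT-RANKL-Ab, 37.6 CPM for Cd40-/- Control and 43.8 CPM for Cd40-/- RANKL-Ab. Tuft-like cells went from 133 CPM in WT-Control to 47.0 CPM in WT-RANKL-Ab (log2 ratio -1.48, -1.72 to -1.25), with 119 CPM for Cd40-/- Control and 26.4 CPM for Cd40-/- RANKL-Ab. T cell-like cells were at 137, 8.20, 24.9 and 13.5 CPM in the 4 libraries, so the WT-Control value of tuft-like cells was not above theirs. Microfold-like cells went from 282 to 72.3 CPM with the antibody in wild type (-1.95, -2.66 to -1.32), while keratinocyte-like cells went from 370.4 to 256 CPM (-0.53, -0.81 to -0.26). Mimetic cells together were at 358, 187 and 314 CPM in WT-Control, in WT-RANKL-Ab and then in Cd40-/- Control.

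**Figure D3:**
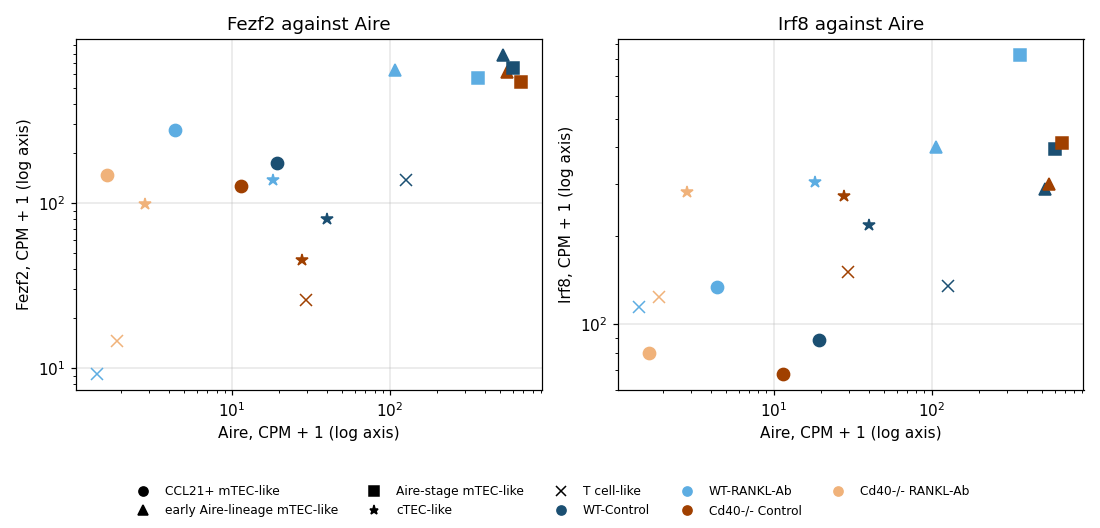
Fezf2 (left) and Irf8 (right) against Aire, all as CPM + 1 on log axes, with the class as symbol and the library as colour. CCL21+ mTEC-like cells of WT-RANKL-Ab and Cd40-/- RANKL-Ab sit at the left with Aire at 3.36 and 0.622 CPM and Fezf2 at 275 and 147 CPM, and Aire-stage mTEC-like cells of WT-RANKL-Ab stand highest for Irf8 at 825 CPM.

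Like Aire, Irf4 was highest in Aire-stage, early Aire-lineage and cycling cells among the named TEC classes of WT-Control. In Aire-stage mTEC-like cells it was at 26.6 CPM in WT-Control (24.1 to 29.3), 28.2 CPM in WT-RANKL-Ab (20.3 to 38.1) and 27.6 CPM for Cd40-/- Control (23.3 to 32.4), and these intervals overlapped. Early Aire-lineage cells were at 27.8, 22.3 and 31.3 CPM. Where Aire had WT-RANKL-Ab log2 ratios of -0.74 and -2.28 in these classes, Irf4 had 0.08 (-0.39 to 0.53) and -0.31 (-0.65 to 0.03). Cycling TEC-like cells were at 29.9 CPM in WT-Control (298 UMIs), 6.48 CPM in WT-RANKL-Ab (10 UMIs) and 32.0 CPM for Cd40-/- Control (310 UMIs), a log2 ratio of -2.05 (-2.92 to -1.24) in WT-RANKL-Ab. In Cd40-/- RANKL-Ab the 8 Irf4 UMIs were spread over T cell-like cells (2), cTEC-like cells (3), CCL21+ mTEC-like cells (1) and the gate for dendritic, macrophage or B cells (2).

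In CCL21+ mTEC-like cells Irf4 was at 5.56 CPM in WT-Control (89 UMIs), 6.01 in WT-RANKL-Ab (93 UMIs), 2.94 for Cd40-/- Control (22 UMIs) and 0.311 for Cd40-/- RANKL-Ab (1 UMI). The antibody library of wild type lay within counting error of its control (log2 ratio 0.10, -0.27 to 0.48), and Cd40-/- RANKL-Ab lay below it (-2.32, -2.70 to -1.24). That last value rests on 1 UMI and is -0.59 with 10 CPM added. Thinned to 1000 UMIs, 2.35% of Aire-stage mTEC-like cells held an Irf4 UMI in WT-Control, 2.59% in WT-RANKL-Ab and 2.60% for Cd40-/- Control. At full depth 19.1% of Aire-stage, 27.2% of early Aire-lineage and 36.6% of cycling cells of WT-Control held one. The median depths of these classes were 10218, 12850 and 17249 UMIs, and detection rises with depth. After thinning, the shares were 2.35%, 2.49% and 2.89%, with overlapping intervals.

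Of the 7 genes, and among those with at least 50 UMIs, only Irf8 was 2-fold higher in the remaining Aire-stage mTEC-like cells after the antibody. It was at 396 CPM in WT-Control (386 to 406), 825 CPM in WT-RANKL-Ab (779.5 to 872) and 414 CPM for Cd40-/- Control (397 to 432). WT-RANKL-Ab was 2.09-fold above WT-Control (log2 ratio 1.06, 0.97 to 1.15), and Cd40-/- Control lay within counting error of it (0.07, -0.01 to 0.14, and -0.10 under TMM factors). With gate limits 1.5 times higher the ratio was 0.90 and no longer past 2-fold. The thinned share of these cells with an Irf8 UMI was 28.3% (26.0 to 30.8), 47.8% (41.2 to 54.5) and 28.5% (25.01 to 32.2).

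Irf8 is also a gene of dendritic cells and B cells, so the markers of those cells were summed in the same class. Their 10 markers stood at 908 CPM in WT-Control, 908 CPM in WT-RANKL-Ab and 1171 CPM for Cd40-/- Control, mostly from Lyz2 (834, 866 and 1106 CPM). Of the 10 markers, 8 had a UMI in WT-RANKL-Ab and 10 in WT-Control. In WT-RANKL-Ab, Siglech and Itgax were at 0 UMIs, and so was Ptprc, the CD45 gene, which is not among the 10. Cd79a was at 1 UMI. In WT-Control, Siglech, Itgax, Ptprc and Cd79a were at 8, 15, 33 and 238 UMIs. The class held 230 cells in WT-RANKL-Ab against 1418 in WT-Control. A count of 0 allows up to 2.01 CPM there, so the zeros do not show lower levels. Cells of the class without a UMI of these markers held 409.6 CPM of Irf8 in WT-Control (344 cells), 870.0 in WT-RANKL-Ab (112 cells) and 444 for Cd40-/- Control (167 cells). Their median depths were 7117, 2750.5 and 5589 UMIs. A marker is missed more often at low depth, so this subset does not show that RNA of blood cells was absent.

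In early Aire-lineage and CCL21+ mTEC-like cells Irf8 was also above WT-Control in WT-RANKL-Ab, by less. The median log2 ratio of all genes in that library was itself 0.21 in the early class and 0.14 in the CCL21+ class. TMM factors moved these medians by -0.26 and -0.14, so part of the Irf8 ratios there depends on scaling. Early Aire-lineage cells were at 289, 399.6 and 299 CPM in WT-Control, in WT-RANKL-Ab and then in Cd40-/- Control, with a log2 ratio of 0.47 (0.38 to 0.55) in WT-RANKL-Ab. CCL21+ mTEC-like cells were at 87.3, 133, 66.7 and 78.6 CPM in the 4 libraries, with 0.61 (0.51 to 0.70). Their thinned shares, 7.82%, 11.8%, 6.20% and 7.61%, compare with 11.4%, 6.24%, 10.0% and 5.19% in T cell-like cells, which may not lack Irf8. They lay below these in both IgG libraries and above in both antibody libraries, with intervals apart in WT-RANKL-Ab (10.5 to 13.2 against 3.45 to 9.86) and overlapping in Cd40-/- RANKL-Ab. Cycling TEC-like cells went the other way, from 185 to 143 CPM (-0.37, -0.57 to -0.17), as did tuft-like cells, from 64.8 to 45.8 CPM (-0.49, -0.76 to -0.23). Microfold-like cells, at 125.5 and 86.8 CPM, differed within counting error (-0.53, -1.18 to 0.07).

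cTEC-like cells held Irf8 at 216 CPM in WT-Control, 304 in WT-RANKL-Ab, 272 for Cd40-/- Control and 282 for Cd40-/- RANKL-Ab, above the CCL21+ class in each library. The class accounted for 1.97% of the Irf8 UMIs in WT-Control and 51.0% in Cd40-/- RANKL-Ab, where it made up 21.2% of cells. T cell marker genes summed to 612, 451, 715 and 456 CPM in cTEC-like cells, and those cTEC-like cells without any T cell marker UMI held 251, 312, 274 and 269 CPM of Irf8. T cell-like cells themselves were at 134, 114, 149.9 and 123 CPM.

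**Figure D4:**
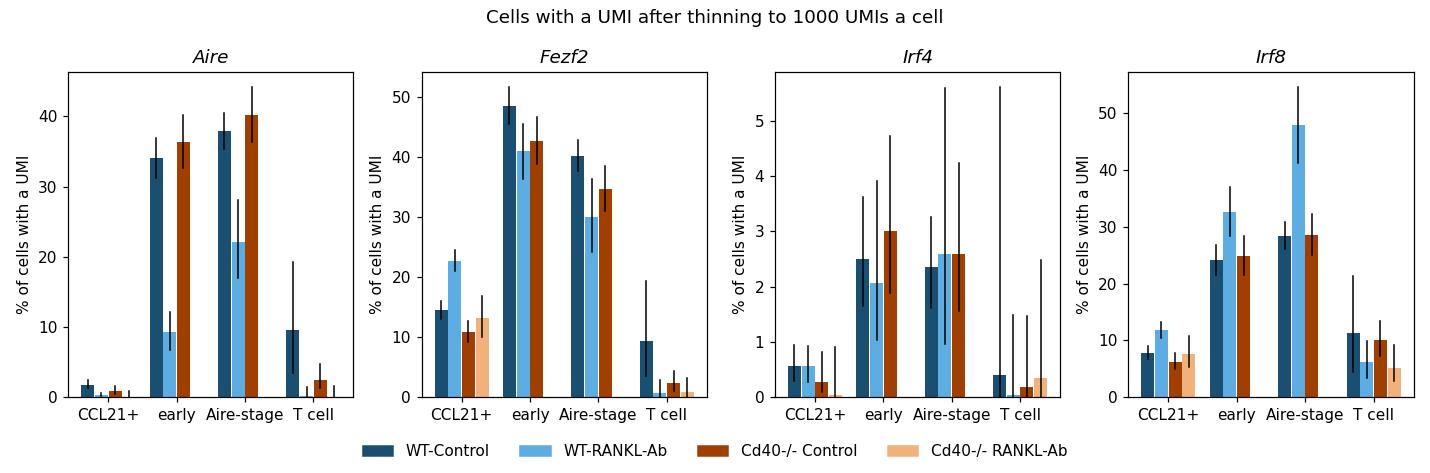
Share of cells with a UMI of Aire, Fezf2, Irf4 or Irf8 after every cell was thinned to 1000 UMIs (y axis in percent, from 0, a different range in each panel), in 4 classes, with exact 95% intervals of counting error. Classes with under 20 cells in a library have no bar. Aire in early Aire-lineage cells falls from 34.0% in WT-Control to 9.28% in WT-RANKL-Ab, and Irf8 in Aire-stage cells stands at 28.3% and 47.8%.

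Chd4 was detected in every class, and its lowest value, over the 42 combinations of class and library, was in Aire-stage mTEC-like cells of WT-RANKL-Ab. The class was at 68.4 CPM in WT-Control (64.3 to 72.7), 42.3 CPM in WT-RANKL-Ab (32.5 to 54.1) and 97.0 CPM for Cd40-/- Control (88.8 to 106). WT-RANKL-Ab lay below WT-Control there (log2 ratio -0.68, -1.06 to -0.32) and Cd40-/- Control above it (0.50, 0.35 to 0.65). In early Aire-lineage cells both stood above WT-Control, at 104 and 106 against 77.7 CPM. CCL21+ mTEC-like cells were at 103, 111, 138 and 101 CPM in the 4 libraries, tuft-like cells at 136, 164, 155 and 161 CPM, and T cell-like cells at 145, 154, 202 and 161 CPM. In CCL21+ mTEC-like, early Aire-lineage, Aire-stage and cycling cells, Cd40-/- Control exceeded WT-Control by log2 ratios of 0.41 to 0.50. It did so too in cTEC-like (0.49), progenitor-like (0.48) and T cell-like cells (0.48). Ratios in the tuft-like and mimetic classes ran from -0.02 (neuroendocrine-like) to 0.48 (ciliated-like). TMM factors moved the median of all genes in this comparison by -0.15 in CCL21+, -0.19 in early Aire-lineage and -0.15 in Aire-stage cells.

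Hdac3 varied least over the classes, from 16.1 to 54.3 CPM. In Aire-stage mTEC-like cells it was at 22.2 CPM in WT-Control, 20.8 in WT-RANKL-Ab and 24.997 for Cd40-/- Control, with overlapping intervals. Early Aire-lineage cells were at 33.7, 53.7 and 40.6 CPM, with WT-RANKL-Ab 1.59-fold above WT-Control (log2 ratio 0.66, 0.41 to 0.90). The median log2 ratio of all genes in that comparison was 0.21, and TMM factors moved it by -0.26. CCL21+ mTEC-like cells were at 39.6, 52.2, 54.3 and 42.0 CPM in the 4 libraries. No class brought Chd4 or Hdac3 past the 2-fold limit against WT-Control.

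Prdm1 was highest in keratinocyte-like cells, which held 9.83 CPM in WT-Control (15 UMIs), 11.2 CPM in WT-RANKL-Ab (6 UMIs) and 9.85 CPM for Cd40-/- Control (15 UMIs). The 3 intervals overlapped. In Aire-stage mTEC-like cells it was at 1.11 CPM (17 UMIs), 3.36 CPM (5 UMIs) and 3.54 CPM (19 UMIs) in the same libraries. The counts of this gene fell under the minimum of 50 UMIs in each single class described by ratios here. Mimetic classes together were at 2.95 CPM in WT-Control (31 UMIs) and 6.11 CPM for Cd40-/- Control (39 UMIs), a log2 ratio of 0.85 (0.25 to 1.49).

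The 7 genes were counted against all genes in 3 classes, and Prdm1 was under the minimum count in each. Further classes had genes lower past 2-fold in WT-RANKL-Ab but were not set against all genes. They include cycling TEC-like, tuft-like, microfold-like and T cell-like cells for Aire and Fezf2, and keratinocyte-like, cTEC-like and progenitor-like cells for Aire. T cell-like cells, which should lack Aire, went from 125 to 0.410 CPM of it (log2 ratio -6.49). Tuft-like, keratinocyte-like, cTEC-like and progenitor-like cells of WT-Control did not exceed the T cell-like level of Aire. Whether their ratios reflect Aire RNA of their own was not tested. Irf4 was also lower past 2-fold in cycling cells. In CCL21+ mTEC-like cells 1 of 6 genes was lower in WT-RANKL-Ab, against 2.56% of all genes, and 0 were higher, against 1.28%. The gene was Aire, whose share of cells there was within counting error of the T cell-like share. Cd40-/- Control gave 0 of 6 in both directions, against 2.22% lower and 2.84% higher. Cd40-/- RANKL-Ab gave 2 of 6 lower (Aire, again within counting error of T cell-like cells, and Irf4 on 1 UMI), against 5.25%. In that library 0 were higher, against 4.12%. In early Aire-lineage cells Aire alone was lower in WT-RANKL-Ab, against 11.0% of all genes lower and 11.8% higher, and 0 of 6 passed in Cd40-/- Control, against 1.63% and 3.77%. In Aire-stage mTEC-like cells Irf8 alone was higher in WT-RANKL-Ab, against 2.71%, and 0 were lower, against 16.0%. Cd40-/- Control gave 0 of 6 there, against 2.67% lower and 2.81% higher.

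Co-detection was read in thinned cells as the share with a Fezf2 UMI among cells with and without an Aire UMI. Among Aire-stage mTEC-like cells it was 42.6% (38.3 to 46.9) and 38.8% (35.5 to 42.1) in WT-Control, 41.5% (27.6 to 55.8) and 26.8% (20.5 to 33.9) in WT-RANKL-Ab, and 34.6% and 34.8% in Cd40-/- Control. In early Aire-lineage cells it was 54.1% (49.0 to 59.4) and 45.7% (41.9 to 49.4) in WT-Control, and 45.9% and 40.8% in Cd40-/- Control. Mimetic cells of WT-Control gave 34.0% (26.9 to 41.5) and 20.9% (18.4 to 23.7), the widest gap with intervals apart. They pool classes with unlike shares of both genes. Aire was in 23.1% of enterohepatic-like and 7.28% of keratinocyte-like cells, and Fezf2 in 17.6% of microfold-like and 27.6% of ciliated-like cells. The part of this mixture in the gap was not tested. Irf8 in Aire-stage cells of WT-RANKL-Ab was seen in 40.3% (27.6 to 55.8) of cells with an Aire UMI and 49.9% (42.2 to 57.3) of cells without. Most of these intervals overlap, and a missing UMI at this depth does not show a missing transcript.

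Over the 42 class and library profiles, the genes whose levels ran most like Aire were Calcb (Pearson r 0.96), which encodes a calcitonin gene-related peptide, Hdc (0.95), the enzyme that makes histamine, and Fscn1 (0.945), an actin-bundling protein. Fscn1 was also among the closest to Irf4 (0.93), after Aif1l (0.94) and Dleu7 (0.935). The closest to Fezf2 were Gm13305 (0.945), a predicted gene that may share reads with copies, S100a14 (0.94) and Skint10 (0.93), those to Irf8 were Kif26a (0.88), Tspan18 (0.87) and S100a2 (0.87), and those to Prdm1 were Muc15 (0.87), Gjb6 (0.85) and Ltf (0.85). Chd4 ran most like Bptf (0.88), a subunit of another remodelling complex, Mbtps1 (0.87) and Top2b (0.86), and Hdac3 most like Bclaf3 (0.86), Nedd4 (0.84) and Uba2 (0.83). Among the 7 genes themselves, Aire ran closest to Irf4 (0.90) and Fezf2 (0.81), then to Irf8 (0.64), and opposite to Chd4 (-0.58) and Hdac3 (-0.54). The profiles share libraries and classes, and the r values describe them without a test.

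Over all cells, 15.3% of all genes were lower past 2-fold in WT-RANKL-Ab, 1.25% for Cd40-/- Control and 21.1% for Cd40-/- RANKL-Ab, and 4.97%, 2.81% and 10.2% were higher. The counts of the lists that follow stand beside these shares. Among 26 proteins reported to work with AIRE, 1 was lower and 1 higher past 2-fold in WT-RANKL-Ab, 0 and 3 for Cd40-/- Control, and 1 and 3 for Cd40-/- RANKL-Ab. The median log2 ratios were 0.51, 0.52 and 0.44, against 0.05, 0.08 and 0.01 for all genes. Sirt1, a deacetylase that acts on AIRE, was the gene that was lower, at 75.1 CPM in WT-Control, 12.3 in WT-RANKL-Ab, 69.5 for Cd40-/- Control and 12.3 for Cd40-/- RANKL-Ab. Parp1 followed as the second largest fall, within the limit, at 28.4, 29.5, 48.4 and 21.6 CPM. Xrcc6 and Xrcc5, the Ku subunits, had the largest ratios in Cd40-/- RANKL-Ab, with 12.7, 20.5, 22.7 and 36.7 CPM and 23.0, 39.0, 38.9 and 49.5 CPM. Within the Aire-stage class 1 of the 26 was lower in WT-RANKL-Ab (Top2a, which also marks dividing cells), against 16.0% of all genes, and 3 were higher in Cd40-/- Control (Prkdc, Top2a and Ep300), against 2.81%. Markers of T cells summed over all cells to 142, 749, 787 and 1573 CPM in the 4 libraries, and their part in these list values was not tested.

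The 12 other NuRD subunits gave 0 lower and 1 higher (Mta1) in WT-RANKL-Ab, 0 and 1 (Mbd2) for Cd40-/- Control, and 0 and 2 (both) for Cd40-/- RANKL-Ab, with medians of 0.47, 0.30 and 0.48. The counts higher were near the shares of all genes (4.97%, 2.81% and 10.2%). Mta1 was at 12.2, 27.2, 22.0 and 26.6 CPM and Mbd2 at 13.4, 24.8, 28.1 and 35.7 CPM in the 4 libraries. The largest falls, within the limit, were those of Rbbp7 (191, 149, 194 and 152 CPM) and Mbd3 (98.0, 115.6, 78.9 and 97.1 CPM). Among subunits of the HDAC3 corepressor complex, Tbl1xr1 was higher in Cd40-/- Control and, with Tbl1x, in Cd40-/- RANKL-Ab. Tbl1xr1 was at 25.7, 45.7, 54.0 and 61.9 CPM and Tbl1x at 52.5, 98.2, 84.9 and 110.2 CPM. Gps2 was within the limit, at 42.6, 53.2, 34.4 and 56.0 CPM.

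Of 11 other IRF family members and their ETS and AP-1 partners, 4 were lower in WT-RANKL-Ab (Irf5, Spi1, Batf and Batf3), 1 for Cd40-/- Control (Irf7) and 6 for Cd40-/- RANKL-Ab (these 5 and Spib), against 15.3%, 1.25% and 21.1% of all genes, and 0 were higher. The medians were -0.44, -0.27 and -1.92. Irf7, a driver of interferon responses, was at 138 CPM in WT-Control, 102 CPM in WT-RANKL-Ab, 64.4 CPM for Cd40-/- Control and 11.05 CPM for Cd40-/- RANKL-Ab. Batf3 was at 14.9, 3.69, 9.80 and 0.419 CPM. Irf1 and Irf3 had the largest rises, within the limit, at 61.1, 73.9, 79.5 and 96.7 CPM and 46.0, 58.1, 41.0 and 58.7 CPM. The dendritic, macrophage and B cell markers, several of whose cells use these factors, summed over all cells to 459, 89.3, 375 and 12.4 CPM. By class in WT-Control, the same markers summed to 908 CPM in Aire-stage, 332 in early Aire-lineage and 26.8 in CCL21+ mTEC-like cells. The sums over all cells are therefore not a measure of blood cells alone, and their part in this list was not tested. Within the Aire-stage class Irf7 and Spi1 were lower in WT-RANKL-Ab, against 16.0% of all genes, and Irf7 for Cd40-/- Control, against 2.67%.

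Of 9 factors tied to the Aire promoter or its NF-kB enhancer, Tbx21 and Ctcfl were lower and Tcf7 higher in WT-RANKL-Ab, Tcf7 was higher in Cd40-/- Control, and Relb, Nfkb2, Tbx21 and Ctcfl were lower and Tcf7 higher in Cd40-/- RANKL-Ab. The 2 of 9 lower in WT-RANKL-Ab were near the 15.3% of all genes. The medians were -0.33, 0.18 and -0.23. Tbx21 was at 11.2, 4.21, 8.74 and 0.524 CPM and Ctcfl at 3.39, 0.621, 3.18 and 0.0524 CPM. Tcf7, also a gene of developing T cells, was at 29.2, 71.9, 102.6 and 150.3 CPM beside the T cell marker sums of 142, 749, 787 and 1573 CPM. Nfkb1 was at 60.9, 96.2, 111 and 122 CPM. Within the Aire-stage class 0 of the 9 passed in either direction, where 16.0% of all genes were lower in WT-RANKL-Ab.

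Antigens tied to FEZF2 or AIRE were listed as outputs. Of 10 FEZF2-dependent antigens, 7 were lower in WT-RANKL-Ab, 0 for Cd40-/- Control and 9 for Cd40-/- RANKL-Ab, against 15.3%, 1.25% and 21.1% of all genes, with medians of -2.43, -0.06 and -3.83. Fabp9 was at 141 CPM in WT-Control, 21.9 in WT-RANKL-Ab, 133 for Cd40-/- Control and 0.367 for Cd40-/- RANKL-Ab, and Apoc3 at 71.6, 10.0, 44.4 and 0.0524 CPM. Nol4 and Maoa were lower by less, at 13.2, 10.1, 14.4 and 3.87 CPM and 14.1, 6.71, 15.1 and 7.59 CPM. Within the Aire-stage class, where Fezf2 stood within 1.22-fold of WT-Control, 5 of 10 were lower and 1 higher (Resp18) in WT-RANKL-Ab, against 16.0% and 2.71% of all genes, and 0 lower and 2 higher in Cd40-/- Control, against 2.67% and 2.81%. Ttr and Apoc3 are also genes of enterohepatic-like cells.

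Of the 5 AIRE-dependent antigens matched in the matrices (Spt1 was not matched), 5 were lower in WT-RANKL-Ab, 1 for Cd40-/- Control (Ins2) and 5 for Cd40-/- RANKL-Ab, beside the same shares of all genes, with medians of -3.65, -0.43 and -5.58. Csn2, a milk casein, was at 799.9 CPM, 91.7 CPM, 665 CPM and 3.67 CPM in the 4 libraries, and S100a8, a neutrophil protein, at 630.5, 27.7, 467 and 3.77 CPM. Ins2, a gene of pancreatic beta cells, was at 36.8, 0.249, 17.3 and 0.0524 CPM, and Mup4 at 7.14, 0.104, 6.12 and 0 CPM, where 0 UMIs allow up to 0.157 CPM. Within Aire-stage mTEC-like cells 4 of the 5 were lower in WT-RANKL-Ab, against 16.0% of all genes, with a median of -1.40, and 1 was higher in Cd40-/- Control (Mup4), against 2.81%. The lists were drawn up from general knowledge of the field, membership was not checked against a source, and they are described by these counts alone.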

How the data were processed

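TECs of 4 pooled libraries, 1 per condition, were profiled with 10x Genomics 3′ chemistry. The deposited files hold UMI counts per gene and cell, made by the authors with Cell Ranger (5.0.1 in the matrix headers, 5.1 in the submitters' processing notes) on mm10; these counts are not scaled for length, so levels are not compared between genes. Cells with at least 200 genes, at least 1000 UMIs and at most 25% mitochondrial UMIs were kept, which left 94853418 and 48272150 UMIs in the wild-type libraries (IgG, then antibody) and 65694923 and 19098773 in those of Cd40-/-.

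Each cell was scored by the mean z-score of log2(1 + UMIs per 10000) of each class's markers and named by its best score where this reached 0.5, led by 0.2 and rested on 3 detected markers (2 for lists under 5). The limits were set after the data were seen. No doublet caller was run, and cells with scores within the lead stayed unnamed. UMIs were summed per class and library. Levels carry exact Poisson intervals, ratios an exact conditional binomial interval with the WT-Control level held at its value, and shares exact Clopper-Pearson intervals. A count of 0 allows up to 3 UMIs. Intervals and floors cover counting error only. Ratios were read in classes of at least 50 cells in both libraries, for genes with at least 50 UMIs in both together. Thinned shares are the mean of 50 random thinnings. Likeness is Pearson's r of log2(CPM + 10) among 13642 genes with at least 500 UMIs that are neither markers nor among the 7. From each list the 2 largest rises and falls in Cd40-/- RANKL-Ab are named with values, except 1 gene that is not reported here, with the counts and median of its list. The genes, markers and lists were chosen with earlier results of these data known. On simulated counts, 100%, 98.5% and 100% of 200 changed genes among 18788, 19062 and 18229 were found for the 3 comparisons with WT-Control, wild type with antibody before the Cd40-/- pair. Alternatives used TMM factors from edgeR 4.0.16, other pseudocounts, filters, gates and depths. Sums were made in Python 3.11.15 with pandas 2.3.3, intervals with scipy 1.17.1 and numpy 2.4.6, and TMM factors in R 4.3.3.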

Additional observations from a re-analysis of the deposited data

Results flagged for a closer look

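The effect of the antibody was compared between genotypes for 31 combinations of gene and class, and in 3 of them the ratios of antibody to control library pointed opposite ways with both intervals off 0. Chd4 over all cells had a log2 ratio of 0.43 in wild type and -0.10 in Cd40-/-. In CCL21+ mTEC-like cells, Chd4 had 0.10 in wild type and -0.45 in Cd40-/-, and TMM factors bring the wild-type value to -0.05. Hdac3 in the same class had 0.39 in wild type and -0.36 in Cd40-/-. With 1 library per condition the difference between genotypes was not tested.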

How the results depend on the processing

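No paired analysis was possible because each condition is 1 library. Of 210 counts of genes past 2-fold under an alternative, 200 stayed within 1.5 times the reported count and 10 did not; of 660 single log2 ratios, 564 moved by less than counting error, 96 moved further and 0 called values changed sign. With 10 CPM added, the count lower over all cells in WT-RANKL-Ab was 1 (Aire) and that in CCL21+ mTEC-like cells of Cd40-/- RANKL-Ab was 1 (Aire), as it also was at 200 UMIs or without early-marker UMIs. The count lower in CCL21+ mTEC-like cells of Cd40-/- Control became 1 (Aire) with the mean CPM of cells, without cells holding a T cell marker UMI, and without early-marker UMIs. The count higher in Aire-stage cells of WT-RANKL-Ab became 2 (Prdm1 and Irf8) at 20 UMIs and 0 with gate limits 1.5 times higher, and that of Cd40-/- Control became 1 (Prdm1) at 20 UMIs. The share of Aire-stage cells was 10.4% and 17.6% in WT-Control, 2.26% and 4.23% in WT-RANKL-Ab and 4.70% and 10.8% in Cd40-/- Control with gate limits 1.5 times higher and lower, and 2.77% in WT-RANKL-Ab at 2000 UMIs per cell. TMM factors moved the median of all genes by -0.12 over all cells and by up to -0.26 in a class, brought Fezf2 past the limit in WT-RANKL-Ab (3 lower in place of 2), and turned 9 small ratios within the 2-fold limit below 0. The causes were not tested. Leaving out early-marker, blood-marker or shared-barcode cells was chosen after seeing the data. Depth limits Prdm1, Irf4 in small classes and all values of Cd40-/- RANKL-Ab.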
